A study of Mus musculus with 40 samples.

Results

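The translation initiation factors, the Eif genes, were followed through the growth of the mouse oocyte. Members were the probe sets of the Affymetrix 430A and 430B arrays whose only platform gene symbol begins with Eif and a number. Eif4e1b, Eif4enif1 and the Argonaute genes once called Eif2c1 to Eif2c4 were left out. The rule gave 132 probe sets of 46 genes, out of 45037 probe sets and 18193 genes in all. Of these, 116 probe sets of 45 genes reached the signal minimum (a scaled signal of 100 on at least 4 of 20 arrays), and Eif4a3 did not. Probe sets with several symbols were not members, so Eif3j and Eif4ebp3 have no value here. Eif1, Eif2s1 and Eif4g1 had no member probe set and were not analysed here.

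Oocytes came from SJLB6 females at 5 follicle stages, with 4 biological replicates per stage and 40 samples over both array types. Primordial oocytes were from 2-day-old mice in pools of 400, primary oocytes from 6-day-old mice in pools of 90, and secondary oocytes from 12-day-old mice in pools of 60. Small antral oocytes were from 17-day-old mice in pools of 30 and large antral oocytes from 24-day-old mice in pools of 20. No genotype or treatment beyond the strain was given. Stage, age of the mice and number of pooled oocytes changed together and cannot be told apart. On 430B, small antral arrays 2 to 4 carry the age and pool size of the secondary stage in part of their labels. They were kept under their titles, and the result counts stayed within 1.5 times without them.

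The deposited values are linear array signals, brought here to a common trimmed mean of 500. Arrays of 1 growing stage (primary to large antral) had a mean correlation of 0.963 to 0.981 with the other arrays of that stage on 430A. On 430B it was lower, at 0.889 to 0.914. The primordial arrays stood apart, at 0.848 to 0.916 on 430A and 0.761 to 0.777 on 430B. The median SE of a member's change between growing stages was 0.11 on 430A and 0.19 on 430B. Deposited primordial replicates 2 to 4 have the form of means with replicate 1. How the submitters made these columns is not given in the sources used here, so this form is an inference from the values. Separate primordial values were formed on it, and every primordial level, error and n given here rests on it; the comparison is given last. The 9 oocyte markers were all above a signal of 100 on every array (lowest 110), with a summed signal of 64857 to 120373. The 7 granulosa cell markers on 430A summed to 717 to 1964, and Amh and Inhba stayed below 100 at every stage. Of these 7, the number above 100 on all 4 arrays was 3, 4, 3, 4 and 5, from primordial to large antral. In bulk samples, a smaller share of cells of a type and less RNA per cell cannot be told apart.

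In eukaryotic initiation, eIF2 brings the initiator tRNA to the small ribosomal subunit, helped by the scaffold eIF3 and the start codon factors eIF1, eIF1A and eIF5. eIF4E binds the mRNA cap, eIF4G bridges it to the ribosome, and the helicase eIF4A, with eIF4B or eIF4H, unwinds the leader. 2 brakes act on this machinery, the eIF4E-binding proteins, which keep eIF4E from eIF4G, and the eIF2 kinases, which stop eIF2B from recharging eIF2. The growing oocyte makes and stores large amounts of mRNA and keeps part of it untranslated until meiotic maturation.

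Promoter sequences from RefSeq (GRCm38.p6) were matched for 36 of the 45 genes, giving 46 promoters. In the 250 bases before the start, the E-box CACGTG, which reads the same on both strands, was present in 10 of them (21.7%), against 6.02% of all 32851 promoters. The 10 promoters belong to 8 genes, among them the cap-binding protein Eif4e, the helicase Eif4a1 and the helicase cofactor Eif4h. Their stretches are shown because these genes share the letters and belong to the same step of initiation. Capitals mark the E-box, and each stretch lies before the annotated start. Eif4e has another E-box in its window, 228 bases before the start, which is not shown.
Eif4e, chr3:138527177-138527236, plus strand: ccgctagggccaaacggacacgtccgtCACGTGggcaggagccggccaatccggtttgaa
Eif4a1, chr11:69672580-69672639, minus strand: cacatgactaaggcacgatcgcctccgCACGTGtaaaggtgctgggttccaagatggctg
Eif4h, chr5:134639473-134639532, minus strand: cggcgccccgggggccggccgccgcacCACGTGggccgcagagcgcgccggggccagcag

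The 3 genes did not share a course from the primary to the large antral stage. Eif4a1 fell, Eif4h fell by less, and Eif4e did not pass the test. Of the 8 genes with the E-box, 2 fell and 0 rose over this interval by limma at an adjusted p under 0.05. Over all 15426 genes tested, 17.5% fell and 17.4% rose. The ETS motif CCGGAAG, searched on both strands, was in 11 of the 46 promoters (23.9%) against 6.91% of all. Of its 11 genes, 4 fell and 0 rose. The GC box GGGCGG, also on both strands, was in 63.0% against 32.7%. Of its 26 genes, 8 fell and 5 rose. The CCAAT box (CCAAT) was in 26.1% against 33.8% of all, and the TATA box (TATAAA) in 6.5% against 12.4%, both searched in the same way. Of 12 CCAAT box genes, 3 fell and 1 rose, and of 3 TATA box genes, 0 fell and 0 rose. Eif4ebp1, Eif6 and Eif4e3 had no matched promoter and are outside these counts. These matches are descriptions of the letters in these windows.

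From the primary to the large antral stage, 9 of the 45 genes rose and 13 fell (limma, two-sided, Benjamini-Hochberg adjusted p under 0.05 over all probe sets of an array type). Over all 15426 genes tested, 17.4% rose and 17.5% fell, against 20% and 28.9% of the initiation factors. With all 20 arrays in the fit, 8 members rose and 8 fell, against 12.2% and 12.5% of all genes; the falls of Eif2b1, Eif2b5, Eif4e2, Eif4g2 and Eif4h were lost. The median log2 change of the members was 0.03, and that of all genes was 0.02. The median size of the change was 0.31 for the members and 0.34 for all genes, so the sizes of the changes were close. Only Eif2ak4 rose by more than 2-fold, and 4 genes fell by more than 2-fold, namely Eif4ebp1, Eif2ak3, Eif2s3x and Eif1a. Beside these changes, 6 of the 9 oocyte markers also fell and 2 rose, with a median change of -0.52, and of 7 tested granulosa markers 2 rose (Inha and Hsd17b1); their part in the results was not tested. The log2 3 prime to 5 prime ratio of the Gapdh control, a measure of RNA and label quality, stepped down from 2.97 to 3.16 in secondary arrays to 2.82 to 2.95 in small antral and 2.26 to 2.49 in large antral arrays. That of Actb was 2.28 to 2.47, 2.43 to 3.22 and 2.57 to 4.16 at these stages. Primary arrays were not analysed here for these controls, and their part in the results was not tested. The log2 changes are on signals to which 32 was added, which understates changes of low signals.

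**Figure D1:**
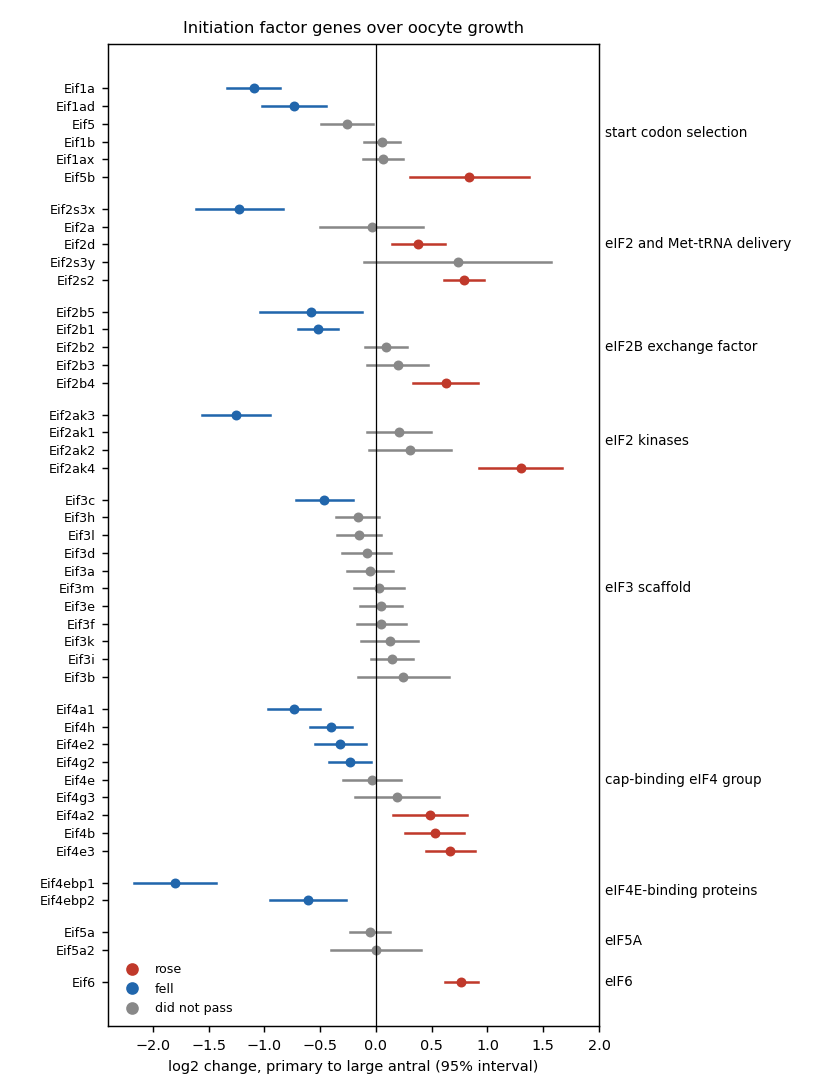
The log2 change from the primary to the large antral stage (x axis) is plotted for 45 genes grouped by role (y axis), with points for the estimate, bars for its 95% interval and colours for the result of the limma test. Both eIF4E-binding proteins lie left of 0, 10 of the 11 eIF3 genes did not pass, and Eif2ak4 and Eif2ak3 lie at opposite ends of the kinases.

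The eIF4E-binding proteins held the largest fall. Eif4ebp1 encodes 4E-BP1, which occupies eIF4E and keeps it from eIF4G until the TOR kinase phosphorylates it. Its signal was 702, 784, 736 and 809 in the primary samples, and 197, 162, 231 and 193 in the large antral samples. Every large antral sample was far below every primary sample. The change was -1.80 ± 0.17 (log2, SE, n = 4 per stage; limma adjusted p = 4.8e-08). Secondary samples, at 359 to 477, lay between these groups, and small antral samples, at 166 to 360, overlapped with the large antral ones. Eif4ebp2, its paralog, gave 779, 596, 919 and 679 in primary samples and 402, 500, 522 and 464 in large antral samples. These groups did not overlap, and the change was -0.61 ± 0.16 (adjusted p = 0.0035). Eif4e, the target of both proteins, gave 3493, 2910, 3192 and 3190 in primary samples and 2878, 3069, 3435 and 3078 in large antral samples. The groups overlapped, and the change was -0.04 ± 0.12 with a 95% interval of -0.30 to 0.22.

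Of the 9 tested genes of the cap-binding eIF4 group, 3 rose and 4 fell. Eif4a1, the main eIF4A helicase, gave 4693, 5381, 5230 and 4539 in primary samples and 3494, 2934, 3150 and 2361 in large antral samples. All large antral values were below all primary values, with a change of -0.74 ± 0.11 (adjusted p = 1.2e-05). Its close paralog Eif4a2 moved the other way, from 1511, 1215, 1169 and 1753 to 1686, 2066, 2360 and 1800. Here the groups overlapped at 1 primary sample, and the change was 0.48 ± 0.15 (adjusted p = 0.015), a call that was lost without replicate 2 or replicate 3 (adjusted p up to 0.23 over all settings tried). The probe sets of these near-identical helicases may share transcripts.

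Within the cap-binding proteins, Eif4e3 rose. This relative of eIF4E gave 5068, 5155, 5150 and 4520 in primary samples and 7467, 7382, 7187 and 9836 in large antral samples, without overlap. The change was 0.67 ± 0.10 (adjusted p = 2e-05). Eif4e2, which encodes the cap-binding repressor 4EHP, went from 887 to 1073 in primary samples to 628 to 809 in large antral samples. Its change was -0.32 ± 0.10 (adjusted p = 0.018), and the call was lost without replicate 1, without replicate 4 and under median scaling (adjusted p up to 0.35 over all settings tried). Eif4b, a helicase cofactor, rose by 0.53 ± 0.12, and Eif4h, a related cofactor, fell by 0.40 ± 0.09, a call lost with all 20 arrays in the fit (adjusted p = 0.055). Eif4g2, an eIF4G relative that does not bind eIF4E, changed by -0.23 ± 0.09 (adjusted p = 0.04). This call was lost without replicate 2, 3 or 4, under both other scalings and with the replicate block (adjusted p up to 0.30). Eif4g3 changed by 0.19 ± 0.17 without passing.

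**Figure D2:**
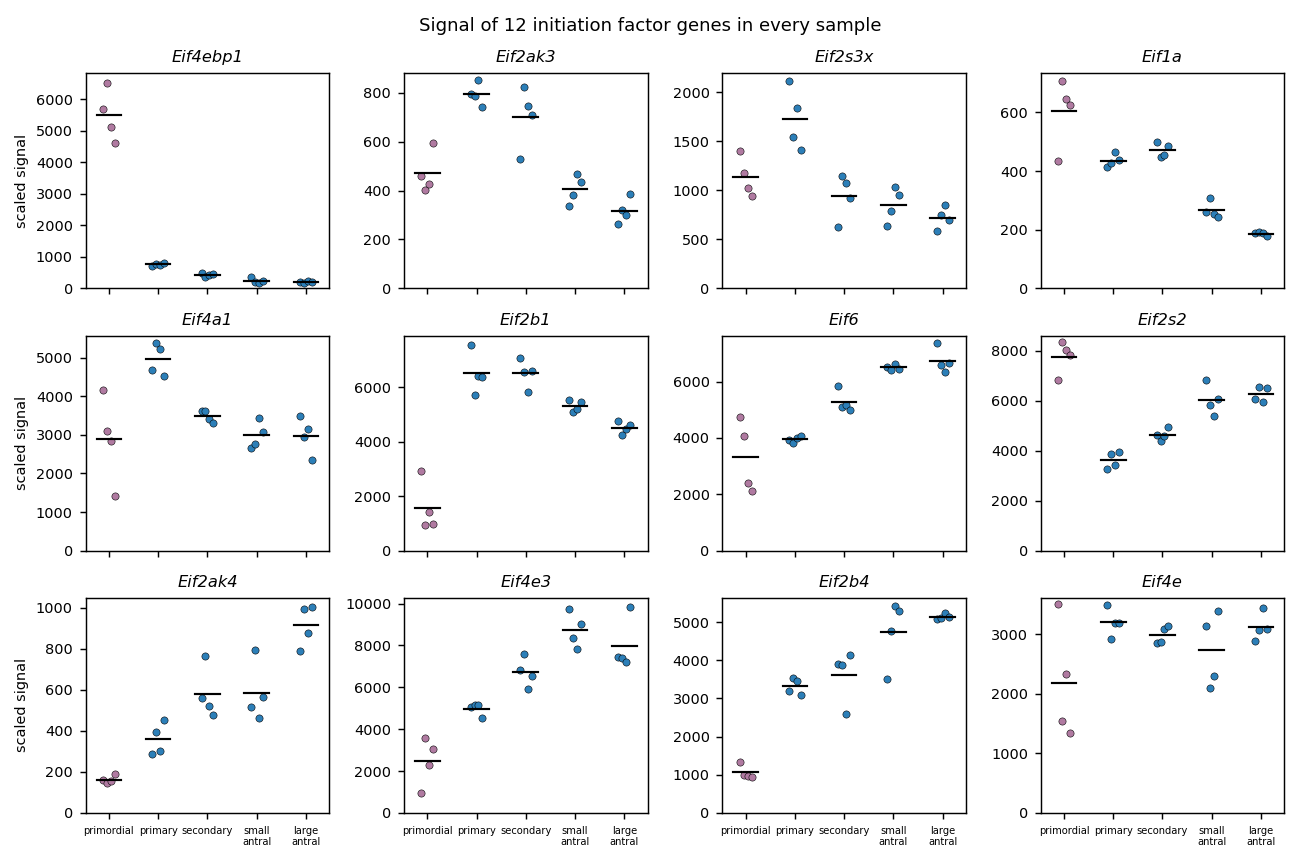
The scaled signal (y axis, linear, from 0) of 12 genes is plotted in every sample at each of the 5 stages (x axis), with points for samples and lines for stage means; purple points are the separate primordial values. Eif4ebp1 was at 4603 to 6506 in primordial samples and at 162 to 231 in large antral samples, Eif6 rose from primary samples of 3822 to 4054 to large antral samples of 6351 to 7373, and Eif4e had overlapping values from the primary stage on.

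Among the genes of eIF2, which carries the initiator tRNA, the subunits parted. Eif2s2, the beta subunit, gave 3260, 3874, 3428 and 3949 in primary samples and 6082, 6561, 5948 and 6523 in large antral samples. Every later sample was above every earlier one, with a change of 0.79 ± 0.08 (adjusted p = 2.1e-07). Of the 6 tested Eif2s2 probe sets, 3 rose and 0 fell, with changes from -0.07 to 0.89. Eif2s3x, the X-linked gamma subunit, gave 2118, 1542, 1838 and 1416 in primary samples. In large antral samples it gave 582, 745, 851 and 694, again without overlap, with a change of -1.23 ± 0.18 (adjusted p = 1.3e-05). The probe set of its Y-linked copy Eif2s3y, on 430B, stayed at 11.7 to 140 in the growing stages, mostly below 100, and did not pass. As the oocytes came from females, this signal is not read as expression of the Y-linked gene. Eif2d, an initiator tRNA factor outside eIF2, rose by 0.38 ± 0.11, a call that was lost without replicate 1 (adjusted p = 0.064), and Eif2a changed by -0.04 ± 0.21.

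The eIF2 kinases phosphorylate the alpha subunit of eIF2 under different stresses. Eif2ak4, the amino acid sensor GCN2, gave 286, 394, 303 and 451 in primary samples and 790, 995, 877 and 1004 in large antral samples. The groups were far apart, and the change was 1.30 ± 0.17 (adjusted p = 4e-06). The other tested Eif2ak4 probe set changed by -0.34 and did not pass. Eif2ak3, the endoplasmic reticulum stress kinase PERK, gave 797, 789, 851 and 743 in primary samples and 265, 323, 299 and 384 in large antral samples. It was lower in every large antral sample, with a change of -1.25 ± 0.14 (adjusted p = 4.4e-07). Eif2ak1, the haem-regulated kinase, changed by 0.21 ± 0.13 and Eif2ak2, the double-stranded RNA kinase, by 0.31 ± 0.17, and neither passed.

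eIF2B, the exchange factor that reloads eIF2 with GTP, has 5 subunit genes, of which 1 rose and 2 fell. Eif2b4, the delta subunit, gave 3202, 3534, 3467 and 3078 in primary samples and 5081, 5096, 5234 and 5135 in large antral samples. Its change was 0.63 ± 0.13 (adjusted p = 0.00071), without overlap. Eif2b1, the alpha subunit, gave 7576, 5722, 6422 and 6367 in primary samples and 4767, 4250, 4463 and 4603 in large antral samples. All later values were lower, with a change of -0.52 ± 0.08 (adjusted p = 3.7e-05); the call was lost with all 20 arrays in the fit (adjusted p = 0.091). Eif2b5, the catalytic subunit, changed by -0.58 ± 0.21 (adjusted p = 0.032), a call lost when any of the 4 replicate numbers was left out (adjusted p up to 0.40 over all settings tried). Eif2b2 and Eif2b3 did not pass, at 0.09 ± 0.09 and 0.19 ± 0.13.

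The start codon factors included 2 falls and 1 rise among 6 genes. Eif1a, a copy of the scanning factor eIF1A, gave 414, 426, 466 and 437 in primary samples and 188, 192, 188 and 179 in large antral samples. The change was -1.10 ± 0.11 (adjusted p = 9.8e-08), and the large antral samples spread little, with an SD of 5.8. Eif1ad, which encodes an eIF1A domain protein and is measured on 430B, fell by 0.74 ± 0.13 (adjusted p = 0.00031). The other of its 2 tested probe sets changed by 0.09 and did not pass. Eif5b, the GTPase that joins the large subunit, gave 865, 776, 726 and 725 in primary samples and 1524, 1473, 1470 and 1176 in large antral samples. It rose by 0.84 ± 0.24 (adjusted p = 0.009), but the small antral samples ran from 450 to 1321. Eif5, the GTPase activator of eIF2, gave 12636 to 14057 in primary samples and 10659 to 11771 in large antral samples. These groups did not overlap, but the change of -0.26 ± 0.11 did not pass (adjusted p = 0.062). Eif1b and Eif1ax changed by 0.06 ± 0.07 and 0.06 ± 0.08 and did not pass.

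Most genes of eIF3, the large scaffold of the small subunit, did not pass. Of its 11 tested genes, this was so for 10, and the 95% intervals of these ran from -0.36 to 0.65. Eif3c, a core subunit, was the exception, at -0.46 ± 0.12 (adjusted p = 0.0032). Its large antral values of 4715, 3518, 4041 and 5249 were all below the primary values of 5881, 5446, 5906 and 6769. Eif3e gave 4742 to 5507 in primary samples and 4936 to 5677 in large antral samples, and these overlapped almost fully. Eif3a, the largest subunit, changed by -0.05 ± 0.09 on its representative probe set, whereas its other 3 probe sets fell, by 0.37, 0.69 and 0.87.

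Eif6 and Eif5a act outside the recruitment steps. Eif6 encodes the protein that keeps free large subunits from joining small ones. Its signal was 3911, 3822, 3995 and 4054 in primary samples, and 7373, 6601, 6351 and 6648 in large antral samples. The groups were far apart, and the change of 0.77 ± 0.07 (adjusted p = 2.4e-08) had the smallest adjusted p of all 45 genes. Its 430B probe set changed by -0.28 ± 0.15 and did not pass. Eif5a, the hypusine-carrying factor of elongation and termination, changed by -0.05 ± 0.08, and Eif5a2 by 0.00 ± 0.19, and neither passed.

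Related genes often diverged within the same array. The log2 ratio of 2 probe sets is not a ratio of RNA amounts, so only its course across stages is described. Eif2ak4 over Eif2ak3 went from -1.10 ± 0.35 (SD, n = 4) in primary samples to 1.44 ± 0.09 in large antral samples. Eif2s2 over Eif2s3x went from 1.07 ± 0.39 to 3.08 ± 0.24. In both pairs no large antral array reached down to a primary array. Eif4a2 over Eif4a1 went from -1.81 ± 0.38 to -0.58 ± 0.31, Eif4e3 over Eif4e2 from 2.36 ± 0.21 to 3.34 ± 0.23, and Eif2b4 over Eif2b1 from -0.96 ± 0.23 to 0.18 ± 0.08. Eif4e over its inhibitor Eif4ebp1 went from 2.03 ± 0.18 to 3.79 ± 0.14. The pairs were chosen with the changes known, so these are descriptions with no test.

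**Figure D3:**
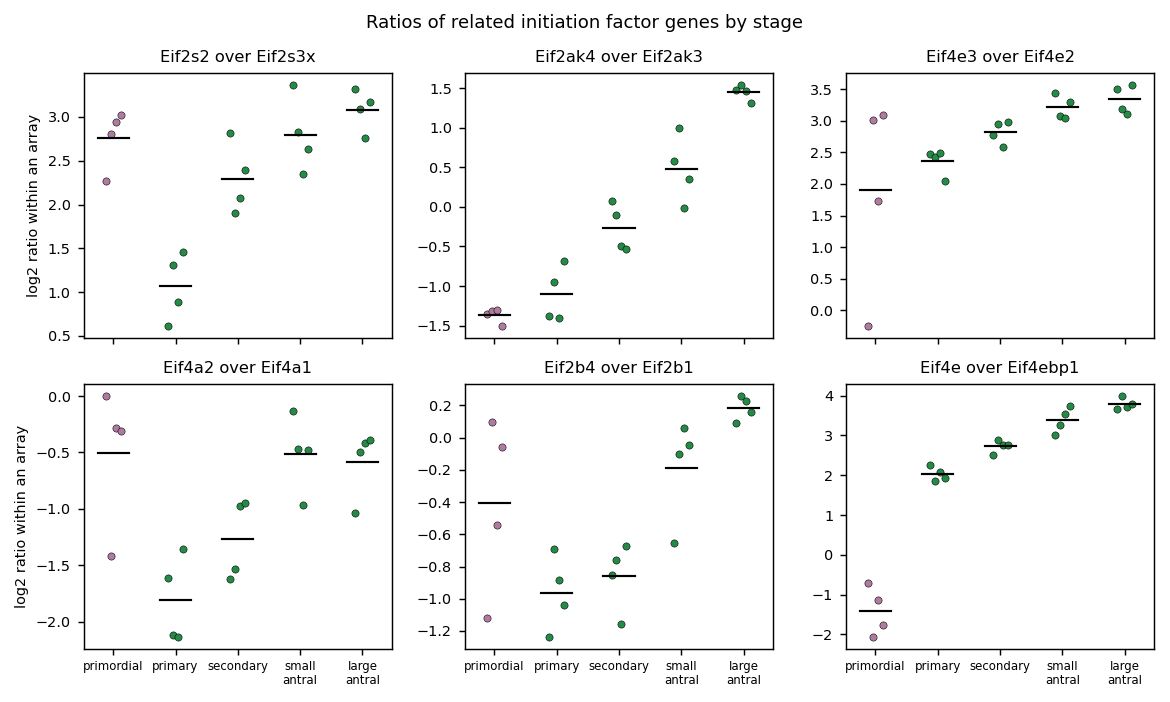
The log2 ratio of 2 related genes within each array (y axis) is plotted by stage (x axis) for 6 pairs, with points for arrays and lines for stage means; purple points use the separate primordial values. Eif2ak4 over Eif2ak3 lies between -1.40 and -0.68 in primary arrays and between 1.32 and 1.53 in large antral arrays.

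The changes were spread over the transitions. From primary to secondary, 8 of 45 genes rose (10.1% of all genes did) and 5 fell (6.63% of all). Without replicate 1, or without replicate 4, 5 rose, and median scaling of the arrays also gave 5 (8.79% of all genes rose). With all 20 arrays in the fit, 3 rose and 3 fell, against 4.14% and 2.81% of all genes. The largest rises were Eif2ak4 (0.65 ± 0.17), Eif2d (0.51 ± 0.11) and Eif4e3 (0.43 ± 0.10). The call of Eif2ak4 was lost without replicate 1 (adjusted p = 0.069). The largest falls were Eif2s3x (-0.87 ± 0.18), Eif4ebp1 (-0.79 ± 0.17) and Eif1ad (-0.63 ± 0.13). Eif4a1 fell by 0.50 ± 0.11 and Eif5 by 0.49 ± 0.11 at this transition, and Eif6 rose by 0.41 ± 0.07. With all 20 arrays the calls of Eif4a1 (adjusted p = 0.17), Eif6 (0.18) and Eif4e3 (0.36) were lost. For Eif2s3x, Eif1ad and Eif4a1 the later transitions did not pass.

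From secondary to small antral, 5 genes rose (5.93% of all genes did) and 5 fell (9.12% of all). Rises numbered 3 without replicate 2 or without replicate 4. With all 20 arrays in the fit 1 rose and 3 fell, against 2.55% and 4.72% of all genes. Eif4a2 (0.53 ± 0.15), Eif2b4 (0.39 ± 0.13) and Eif4e3 (0.38 ± 0.10) had the largest rises, and the call of Eif2b4 (adjusted p = 0.0499) was lost in 10 of 14 alternatives. The call of Eif4a2 was lost without replicate 1 or 2, and that of Eif4e3 without replicate 1 or 4. Eif4ebp1 (-0.82 ± 0.17), Eif1a (-0.76 ± 0.11) and Eif2ak3 (-0.74 ± 0.14) had the largest falls. Eif1a had given 449 to 498 in secondary samples and gave 245 to 307 in small antral samples, and Eif2ak3 went from 530 to 826 to 336 to 468. Neither gene had passed at the transition before.

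From small to large antral, 3 genes rose (3.11% of all genes did) and 3 fell (4.82% of all), and both counts moved when single replicates were left out. With all 20 arrays in the fit, 0 rose and 0 fell by limma's adjusted p, with 3 and 2 at an unadjusted p under 0.05. In that fit, 0.5% of all genes rose and 1.33% fell, so few calls were left for any genes. Without replicate 1, 0 rose and 0 fell by limma's adjusted p, with 4 and 8 at an unadjusted p under 0.05. Without replicate 2, 0 fell (6 unadjusted), without replicate 3, 0 rose (6 unadjusted), and without replicate 4, 1 rose. Eif2ak4 (0.64 ± 0.17), Eif3m (0.37 ± 0.10) and Eif5a (0.28 ± 0.08) rose. Eif1a (-0.44 ± 0.11), Eif3c (-0.41 ± 0.12) and Eif4h (-0.31 ± 0.09) fell. Across the 3 growing transitions, 24 of 45 genes passed at none, and Eif4h was the 1 gene called in both directions. Neither count was made over all genes, so neither is read as a trait of the members. The rise of Eif4h from primary to secondary was lost in 6 of 13 alternatives (adjusted p up to 0.31). Its fall from small to large antral was lost in 7 of 14 (up to 0.35). Its mean signal was 9682 ± 410 in primary, 11846 ± 934 in secondary, 9112 ± 1031 in small antral and 7340 ± 710 in large antral samples (SD, n = 4).

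**Figure D4:**
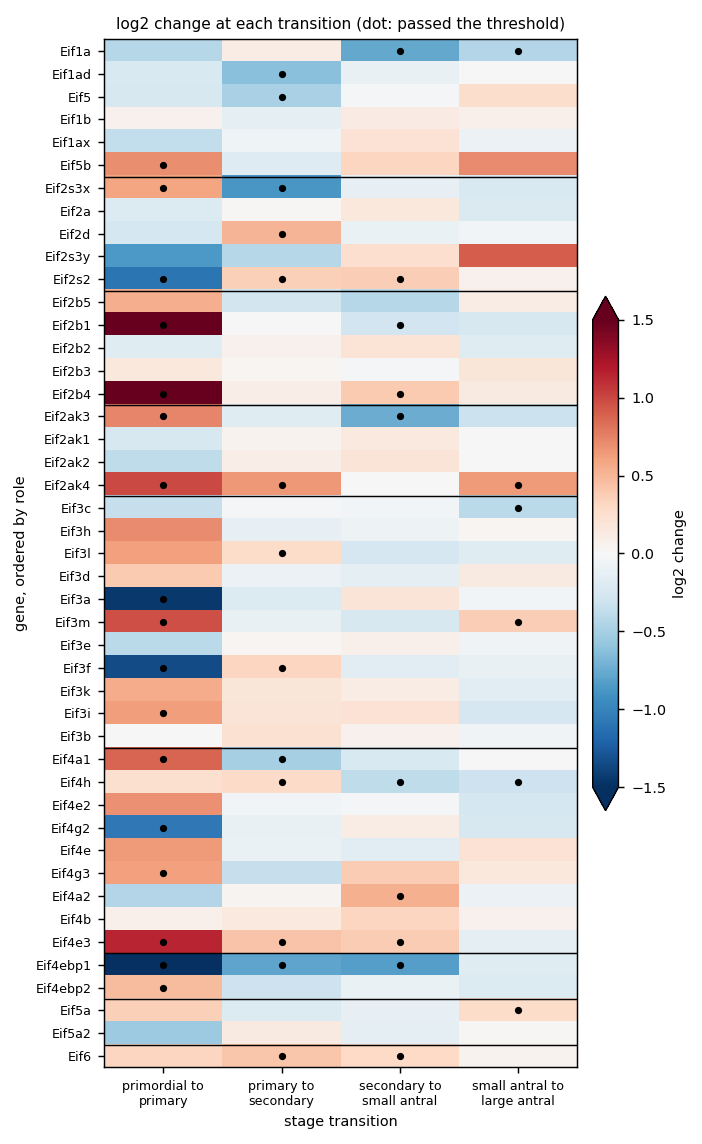
Colours give the log2 change of each of 45 genes (y axis, by role) at each of the 4 transitions (x axis), and dots mark changes that passed the limma test; the colour scale ends at 1.5 in either direction, and Eif5 in the first column is from another of its probe sets. The first column holds the largest changes, with 12 rises and 5 falls, and the last column holds 3 of each.

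Probe sets of 1 gene did not always move together. From primary to large antral, 32 genes had several tested probe sets, and in 4 of them (Eif1a, Eif4a1, Eif4e3 and Eif5b) every probe set passed in the same direction. Eif4ebp1 was the 1 gene with calls in both directions. Its other main probe set fell from 281 to 414 in primary samples to 21.2 to 44.6 in large antral samples (-2.64 ± 0.18), and the remaining one, with signals of 34.7 to 64.1 and 90.2 to 129, rose by 0.84 ± 0.30. Eif1ax, which did not pass on its representative probe set (5283 to 7015 in large antral samples), had another that went from 257 to 367 down to 9.9 to 25.1 (-2.82 ± 0.31, adjusted p = 4.1e-07). A further Eif1ax probe set, on 430B, changed by -1.49 ± 0.35 (adjusted p = 0.0042). Eif5a2 and Eif5a likewise had a second probe set that fell, by 1.81 ± 0.42 and 0.67 ± 0.10. For Eif2s3x, 2 of 3 probe sets fell and the other changed by 0.41 ± 0.17 without passing. The other Eif2ak4 probe set changed by -0.34 from primary to large antral. By transition it changed by -0.56 (primary to secondary), 1.21 (secondary to small antral) and -0.99 (small to large antral), without passing. Eif2s2 was the 1 gene with calls in both directions from primary to secondary. Counted as probe sets, 19 of 116 members rose and 32 fell from primary to large antral, against 12.8% and 14% of all 34960 tested probe sets. By transition, 20 member probe sets rose and 26 fell from primordial to primary (12.3% and 14.1% of all), and 13 rose and 13 fell from primary to secondary (6.55% and 5.09% of all). From secondary to small antral 9 rose and 12 fell (4.21% and 6.48% of all), and from small to large antral 5 rose and 6 fell (2.47% and 3.55% of all).

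The other genes of translation were taken from 5 lists, chosen with earlier results of these data known. Of 11 tested cap and poly(A) partners, 2 rose and 4 fell from primary to large antral. The rises were Pabpc1l, the embryonic poly(A)-binding protein (0.96 ± 0.11), and Paip1, which links that protein family to eIF4A (0.63 ± 0.12). The falls were Pabpc4 (-1.51 ± 0.10), Larp1 (-0.94 ± 0.15), Pabpc1 (-0.76 ± 0.16) and Paip2 (-0.31 ± 0.08). Another list held 9 tested genes, those of the TOR branch, which phosphorylates 4E-BP1, and the MAP kinase-activated kinases Mknk1 and Mknk2, which phosphorylate eIF4E. In it Mknk1 rose (0.58 ± 0.11), and Mknk2 (-0.63 ± 0.18) and Rptor, the substrate-binding subunit of the TOR complex (-1.21 ± 0.11), fell. Under quantile normalization 2 rose and 3 fell, with Akt1s1 added to the rises and Mtor to the falls.

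All 7 genes of the eIF2 phosphatase and stress response list passed. The phosphatase catalytic subunits Ppp1ca (-0.78 ± 0.16), Ppp1cb (-0.67 ± 0.14) and Ppp1cc (-0.37 ± 0.09) fell. The targeting subunits Ppp1r15a (0.46 ± 0.18) and Ppp1r15b (0.45 ± 0.15) rose, as did the stress transcription factors Atf4 (0.59 ± 0.12) and Ddit3 (1.04 ± 0.13). With the replicate number as a block, 3 of these 4 rises passed. Of 10 elongation and release genes, 4 rose and 3 fell, with Eef2k, the kinase that inhibits eEF2, at 0.92 ± 0.13 and Eef1a1 at -0.75 ± 0.07. Of the 4 genes for alternative initiation and for the hypusine modification of eIF5A, 3 fell, namely Denr (-1.12 ± 0.14), Dohh (-0.64 ± 0.17) and Dhps (-0.33 ± 0.12). Under quantile normalization and under median scaling 2 of these 3 falls passed.

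From the primordial to the primary stage, 12 genes rose (17.8% of all genes did) and 5 fell (13.7% of all). This rests on the separate values of primordial arrays 2 to 4, for which the deposited column was doubled and array 1 subtracted. None of these values was negative among 22526 probe sets of 430A or 22411 of 430B. With the deposited values in place of these, 15 genes fell in a fit of the same 2 stages and 16 in a fit of all 20 arrays. Of the markers of other cell types, Dcn (-2.50 ± 0.32) and Star (-1.04 ± 0.26) of the 4 tested theca and stroma genes fell, as did Krt18 (-1.33 ± 0.35) of 4 surface epithelium genes, and Nr5a2 (1.22 ± 0.42) of 7 granulosa genes rose. The 8 theca and stroma markers summed to 1098 to 1857 in primordial arrays and 652 to 860 in primary arrays, without overlap. Of these, Pdgfra stayed below 100 on all primordial arrays, and Col3a1, Cyp17a1, Dcn and Lum on all primary arrays. The summed signals of the granulosa, surface epithelium and blood lists overlapped between the stages; the part of all these markers in the results was not tested. With median scaling, 72.5% of all called genes were rises, against 56.5%, and the median change of all 430A probe sets moved from -0.08 to 0.11 (430B, from -0.20 to 0.12).

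The largest changes of this transition were the same way in all 4 primordial arrays. Eif4ebp1 gave 5701, 6506, 5122 and 4603 in primordial samples against 702 to 809 in primary samples, a change of -2.79 ± 0.15 (limma adjusted p = 1.7e-06). Eif3a went from 2962, 6801, 3910 and 4024 to 1432 to 1612, a change of -1.45 ± 0.23 (adjusted p = 0.00063). All 4 of its probe sets fell at this transition. Eif3f, another eIF3 subunit, changed by -1.34 ± 0.16 and Eif4g2 by -1.07 ± 0.21. Of the 4 tested Eif4g2 probe sets, only 1 fell and 0 rose, with changes from -1.07 to 0.25. Eif2s2 changed by -1.09 ± 0.14, and its representative probe set rose at the next transition, which shares the primary samples. At that next transition 1 of its other probe sets fell (-0.52 ± 0.15, adjusted p = 0.019). The representative probe set gave 6850 to 8364 in primordial, 3260 to 3949 in primary and 5948 to 6561 in large antral samples.

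The rises were led by subunits of eIF2B. Eif2b1 gave 2937, 924, 1427 and 980 in primordial samples against 5722 to 7576 in primary samples (2.19 ± 0.32, adjusted p = 0.00041). Eif2b4 gave 1332, 992, 970 and 940 against 3078 to 3534 (1.63 ± 0.15, adjusted p = 3.1e-05). Both were below the primary stage in every primordial sample. Eif4e3 rose by 1.14 ± 0.34 and Eif2ak4 by 0.99 ± 0.21, and both rose again at the primary to secondary transition. Eif2ak3 (0.73 ± 0.17), Eif2s3x (0.59 ± 0.18) and Eif4a1 (0.87 ± 0.28) rose here and fell from primary to large antral; both comparisons share the primary samples. The calls of Eif2s3x and Eif4a1 here were lost without primordial arrays 2 and 4 and without replicate 2, 3 or 4, and those of Eif4e3 and Eif2ak3 without replicate 3. At this transition 6 genes had probe sets called in both directions, namely Eif2s2, Eif2s3x, Eif3i, Eif3m, Eif4g3 and Eif5b. The falling Eif3m probe set, at 118 to 242 in primordial and 52.2 to 110 in primary samples, reached the signal minimum only with the primordial arrays. Its fall is therefore not used as a result. Such genes were not counted over all genes.

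Counts of the members depended on single primordial arrays. Counts over all genes were not made with arrays left out, so this dependence is not read as a trait of the members. Without primordial replicate 1, 21 genes rose and 10 fell, without replicate 3, 7 rose, and without replicate 4, 7 rose. With the same number left out at both stages, 19 rose and 9 fell (replicate 1), and 6, 4 and 6 rose (replicates 2, 3 and 4). The median change of 40 members to the primary mean was -0.17 from array 1, 0.43 from array 2, 0.20 from array 3 and 0.49 from array 4. The 3 prime to 5 prime ratio of the Actb control, a measure of RNA and label quality, ran in the same order, with log2 values of 1.77, 5.94, 3.03 and 6.24; its part in the result was not tested. In secondary to large antral arrays it lay between 2.28 and 4.16. Without primordial arrays 2 and 4, a choice made after seeing the data, 6 genes rose and 8 fell. Several eIF3 genes turned sign between arrays, such as Eif3l, which changed by -0.86, 1.30, 0.32 and 1.72 from arrays 1 to 4, and Eif3k, by -0.96, 1.21, 0.11 and 1.88. Neither passed.

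**Figure D5:**
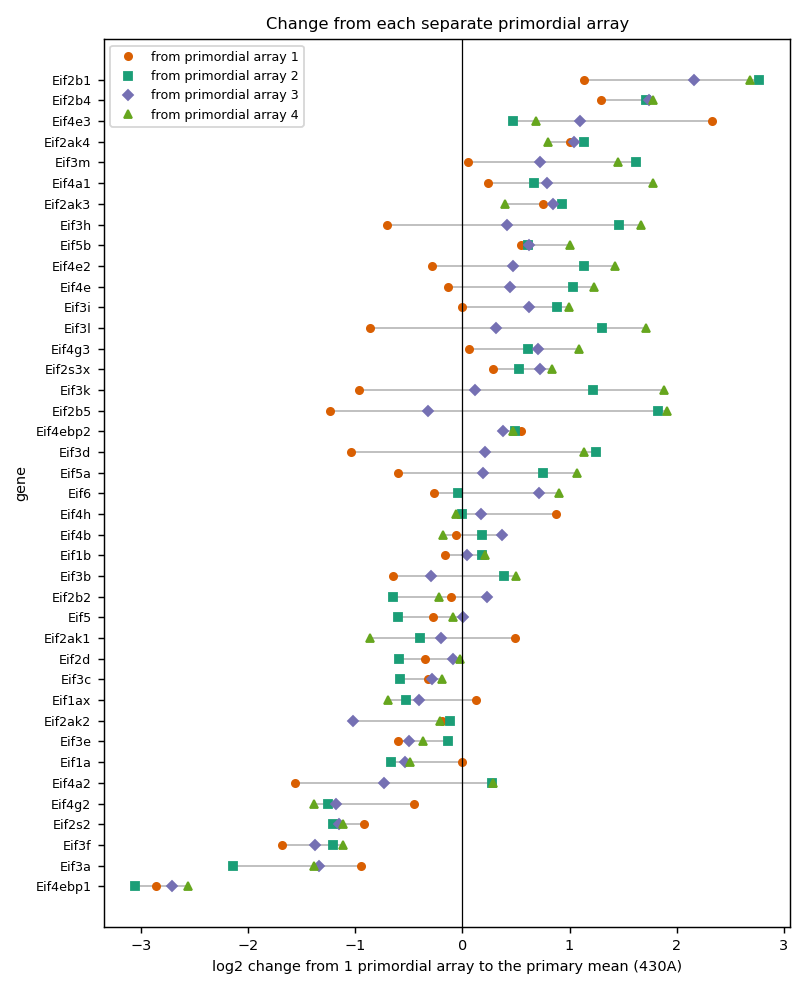
The log2 change from each separate primordial array to the primary mean (x axis) is plotted for 40 genes on 430A (y axis), with 1 symbol per primordial array and a grey line for their range. Eif4ebp1, from -3.05 to -2.56, and Eif2b1, from 1.13 to 2.77, keep their side of 0, whereas Eif2b5 runs from -1.23 to 1.91.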

How the data were processed

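Mouse oocyte RNA from 5 follicle stages was hybridised to 430A and 430B arrays, 4 biological replicates each. Per the labels, RNA was purified on Picopure columns and labelled with the small-sample protocol. The deposited intensity values are linear signals, made with MAS5 per the submitters' processing notes; its version is not given in the sources used here. Signals were brought to a mean of 500 per array (2% trimmed), and log2 was taken after adding 32. Probe sets reaching 100 on 4 of 20 arrays were tested with limma 3.58.1 in R 4.3.3 (lmFit, eBayes with trend), 430A and 430B apart. Growing stages shared a fit of 16 arrays; the primordial comparison used 8. Primordial replicates 2 to 4 were separated from replicate 1 as 2 times their deposited value less that of replicate 1, except 100 probe sets of 430A without such a value. Intervals use the residual degrees of freedom (12 and 6). A gene is 1 probe set, 430A before 430B, then by highest mean signal over the growing stages; all levels are of that probe set. Levels are not compared between probe sets. Genes described were the largest called changes of each comparison and fixed key genes; members, lists and pairs were chosen with earlier results of these data known. All 46 genes matched RefSeq by gene ID. Scripts were tested on simulated data. Same-numbered replicates of different stages did not deviate together (correlations -0.12 to 0.13). The number of arrays limits the precision. Alternatives are in the closing section.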

Additional observations from a re-analysis of the deposited data

Results flagged for a closer look

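In 7 of 129 checked groups of 4 replicates, over 26 genes, 1 sample stood apart from the others of its stage by Dixon's test at 95%, which chance alone gives in about 1 of 20 groups. Eif4e3 had 2 of them, large antral replicate 4 at 9835.93 against 7187 to 7467 in the others, and primary replicate 4 at 4520.17 against 5068 to 5155. Eif2b4 had 2, secondary replicate 3 at 2593.16 against 3867 to 4127, and primordial replicate 1 at 1332.19 against 940 to 992. Large antral replicate 4 of Eif5b was at 1175.76 against 1470 to 1524. Primary replicate 1 of Eif1ad was at 4747.71 against 3753 to 3890, and primary replicate 3 of Eif1ax was at 6430.46 against 5871 to 5940.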

How the results depend on the processing

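Of 59 called changes of the named genes, 31 kept direction and side of the threshold in every alternative run. Over 860 comparisons of a call with an alternative, 753 were the same, 107 lost the call and 0 reversed. Of 71 changes of the named genes that did not pass, 17 passed in at least 1 alternative. The change of Eif2b5 from primordial to primary, which did not pass, reversed to -0.67 with deposited primordial values (all 20 arrays or the 2 stages) and to -0.78 without primordial arrays 2 and 4, an alternative chosen after seeing the data. Leaving out replicates gave, for rises and falls, 4 to 21 and 5 to 10 (primordial to primary), 5 to 6 and 5 to 5 (primary to secondary), 3 to 4 and 4 to 4 (secondary to small antral), 0 to 2 and 0 to 3 (small to large antral), and 8 to 9 and 10 to 11 (primary to large antral). Counts over all genes were not made with replicates left out. From primordial to primary, falls numbered 9 with all 20 arrays (18.5% of all genes fell). They numbered 16 and 15 with deposited values (all arrays, 2 stages) and 8 without primordial arrays 2 and 4, where 6 rose. With all 20 arrays in the fit, rises and falls were 3 and 3 (primary to secondary), 1 and 3 (secondary to small antral) and 0 and 0 (small to large antral; 3 and 2 at an unadjusted p under 0.05 by limma), and 8 fell from primary to large antral. With median scaling, 5 rose from primary to secondary and 1 from small to large antral. For small to large antral, 1 fell under quantile normalization, 1 with no signal filter, and 0 in a fit of the 2 stages (8 unadjusted). All member probe sets gave 20 rises and 26 falls, 13 and 13, 9 and 12, 5 and 6, and 19 and 32 in the 5 comparisons. The replicate numbers share only a number (pairing correlations -0.12 to 0.13); with the replicate block, 5 genes fell from small to large antral and the other counts stayed within 1.5 times. Signals near or below 100 are the least certain, and 4 arrays per stage limit the small changes of the last transition.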
